A study of Mus musculus with 14 samples.

Results

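The genes described here are the 38 mouse genes of a chosen list that covers glycolysis, the pentose phosphate pathway, the steps that decide the fate of pyruvate, and Hif1a, Ndrg1 and Narf. They were taken by symbol from a table of raw counts with 52636 gene identifiers, and all 38 were found, each at 1 identifier with counts except Aldoa, whose second identifier held 1 count and was not used. The choice did not use measured values, but it was made with earlier results of these data known. Of the 38, 33 passed the filter on low counts and were tested. Pfkfb1, Pfkfb2, Aldoc, Eno2 and Pdk2 did not pass it.

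RNA came from leukemic progenitor cells of mice transplanted with I1DN leukemic cells, a leukemia that the labels do not describe further and that the series title places among acute myeloid leukemias with mutant IDH1. All groups shared this graft and the same sort for cKit+/Cd11b- cells, taken per mouse, so each library was read as 1 mouse. The groups were relapse, in which mice had AG120 for 28 days and the disease later returned (n = 4), AG120 for 5 days (n = 3) against vehicle for 5 days (n = 3), and AG120 for 14 days (n = 2) against vehicle for 14 days (n = 2). AG120, also known as ivosidenib, inhibits mutant IDH1, and nothing in the labels says whether relapsed mice were on the drug when cells were taken.

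Glycolysis turns glucose into pyruvate, and the pentose phosphate pathway branches off it to supply NADPH and the ribose of nucleotides. Several steps can be run by more than 1 isozyme, encoded by separate genes: hexokinase (Hk1, Hk2, Hk3), phosphofructokinase (Pfkl, Pfkm, Pfkp), pyruvate kinase (Pkm, Pklr) and lactate dehydrogenase (Ldha, Ldhb). In blood cells the isozymes follow lineage. Pklr encodes the pyruvate kinase of liver and red cells, Pkm that of most other cells and of proliferating cells, and Hk3 is typical of myeloid cells. HIF1, whose alpha subunit is encoded by Hif1a, raises the transcription of many glycolytic genes in low oxygen.

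The libraries were made with a 3′ kit (QuantSeq), so counts carry no factor of length and cannot tell splice forms of 1 gene apart. They held 4995738 to 8691708 counts each, of which ribosomal RNA gene models took 50.9% to 74.8%, leaving 1259982 to 3358874 for other genes, the fewest in AG120 day 14 replicate 1. The ribosomal share was 62.5% to 65.3% after 5 days of AG120, against 50.9% to 59.8% with vehicle, and 63.1% and 74.8% after 14 days of AG120, against 55.8% and 68.1% with vehicle. Mitochondrial genes took 0.871% to 1.139% of the other counts in the 5 AG120 libraries, against 0.626% to 0.801% in the 5 vehicle libraries, and 0.719% to 0.766% in relapse. The part of either share in the results was not tested. Levels are given as CPM, counts scaled to a library size of 1e6 after TMM normalization, in replicate order. Fold changes are log2 values with their SE from edgeR's quasi-likelihood test, adjusted by Benjamini-Hochberg over the 11994 genes tested, and "passed" means an adjusted p under 0.05. Kit, the gene of the sort's positive marker, was detected in every library, at 18.9 to 51.9 CPM in relapse. Its range was 23.6 to 33.0 CPM after 5 days of AG120, against 33.4 to 37.7 CPM after 5 days of vehicle. Both libraries of 14 days of AG120 had 11.6 CPM, against 34.9 to 36.7 CPM after 14 days of vehicle. Itgam, which encodes the CD11b that the sort selected against, was highest in relapse, at 13.87 to 53.4 CPM. Its range was 2.55 to 3.80 CPM after 5 days of AG120, against 10.53 to 15.44 CPM after 5 days of vehicle. With 14 days of AG120 it was 5.96 to 7.99 CPM, against 14.48 to 17.97 CPM after 14 days of vehicle. The part of these differences in the results was not tested.

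Marker genes of the red cell line rose with AG120: of 12 erythroid markers, 8 rose and none fell at day 5, and 11 rose and none fell at day 14. Their summed level was 427 to 514 CPM after 5 days of AG120, against 45.9 to 89.8 CPM with vehicle. After 14 days it was 1096 to 1249 CPM with AG120, against 67.5 to 95.99 CPM with vehicle. It was 30.7 to 258 CPM in relapse, and each of the 12 had counts in every group. Of 12 granulocyte and monocyte markers, 6 fell and none rose at day 5, and 2 fell and none rose at day 14. Their sum was 457 to 508 CPM after 5 days of AG120, against 1171 to 1970 CPM with vehicle. After 14 days it was 1114 to 1530 CPM with AG120, against 1876 to 1936 CPM with vehicle, and relapse libraries spanned 732 to 2824 CPM. The markers in this sum differed in direction at day 14. Mpo had 127 to 134 CPM with AG120, against 711 to 800 CPM with vehicle. Ltf had 27.0 to 30.1 CPM with AG120, against 9.06 to 13.2 CPM with vehicle. Mean levels were also higher with AG120 for S100a8, S100a9, Ly6g and Elane. They were lower for Prtn3, Ctsg, Csf1r, Lyz2, Itgam and Csf3r.

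Marker sums of megakaryocytes and of mast cells and basophils were lower with AG120. The sum of 5 megakaryocyte markers was 46.5 to 70.8 CPM after 5 days of AG120, against 379.9 to 468 CPM with vehicle, and 93.6 to 98.5 CPM after 14 days of AG120, against 371 to 402 CPM with vehicle. Of the 4 tested, 3 fell at day 5, and 2 fell and 1 rose at day 14. The sum of 5 mast cell and basophil markers was 52.0 to 60.8 CPM after 5 days of AG120, against 124 to 148 CPM with vehicle, and 17.2 to 24.1 CPM after 14 days of AG120, against 143.8 to 144 CPM with vehicle. Of the 4 tested, 2 fell at day 5 and 3 at day 14. Fcer1a, 1 of these markers, had at most 1 count in any group. Cd34, a stem and progenitor marker, was at 7.65 to 11.4 CPM after 5 days of AG120, against 126 to 146 CPM with vehicle, and at 4.47 to 5.79 CPM after 14 days of AG120, against 140.3 to 146 CPM with vehicle. The 4 markers tested of T and NK, B, and stromal and endothelial cells all fell at both days. In sorted bulk samples such as these, more cells of a type and more RNA of a gene per cell cannot be told apart, and the part of these markers in the changes below was not tested.

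The gene that the largest rise turns on is Pklr (chromosome 3, 89136142 to 89146784 on the plus strand, GRCm38), which has an upstream start used in red cells and a downstream start used in liver. The 3′ counts cannot say which start was used, so the genomic bases before both annotated starts are shown for comparison, as RefSeq gives them (GRCm38.p6, plus strand). The capitals mark AGATAA, a short sequence that GATA factors, the master regulators of red cells, can bind.
Pklr upstream start, chr3:89135892-89136141: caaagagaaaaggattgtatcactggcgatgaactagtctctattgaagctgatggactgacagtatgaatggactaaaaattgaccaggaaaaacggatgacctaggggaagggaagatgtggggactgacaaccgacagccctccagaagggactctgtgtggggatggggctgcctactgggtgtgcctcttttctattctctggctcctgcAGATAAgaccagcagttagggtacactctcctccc
Pklr downstream start, chr3:89136373-89136571: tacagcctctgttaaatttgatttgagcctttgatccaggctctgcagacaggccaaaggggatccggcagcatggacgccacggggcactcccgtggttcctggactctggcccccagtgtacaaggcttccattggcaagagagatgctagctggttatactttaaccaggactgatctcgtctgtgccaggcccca
In the first stretch, AGATAA begins 35 bases before the start. It was absent, on both strands, from the second, which stops short of the RefSeq start, where an annotated exon begins. Among 32851 windows of 250 bases before RefSeq starts, 9.99% held AGATAA or its reverse complement TTATCT, as did 7 of the 58 windows of 37 members (those of Pfkfb1, Pfkfb2, Pfkm and Pklr). ACGTG or CACGT, the core that HIF1 can bind, was in 16.6% of all windows and in 17 of the 58 of members. CACGTG, which contains both of those, was in 6.02% of all windows and in 6 of the 58. A match describes these letters only.

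AG120 changed these genes in both directions, with a switch of pyruvate kinase genes as the largest contrast. At day 5, 20 of the 33 members tested passed, against 39.5% of all genes tested. Of these, 11 rose (background 20.1%) and 9 fell (background 19.3%). At day 14, 16 passed, against 34.7% of all genes. Of these, 7 rose (background 16.8%) and 9 fell (background 17.9%). Fewer members passed, and fewer of all genes, whichever of the 4 day 14 libraries was left out. In those fits 1 of the groups held only 1 library, so the numbers called in them are not given. They do enter the statements below on day 14 calls kept or lost. A call lost in such a fit cannot be told apart from the effect of the smaller group. The median log2 fold change of the 33 was 0.10 at day 5 and 0.11 at day 14, with Ldhb at its fitted value or at its bound, beside -0.00 and -0.01 over all genes. The directions were mixed within the pathway: the upper steps of glycolysis held 4 that rose and 3 that fell at day 5, the lower steps 1 that rose and 2 that fell, and the pentose phosphate genes 3 that rose and none that fell.

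**Figure D1:**
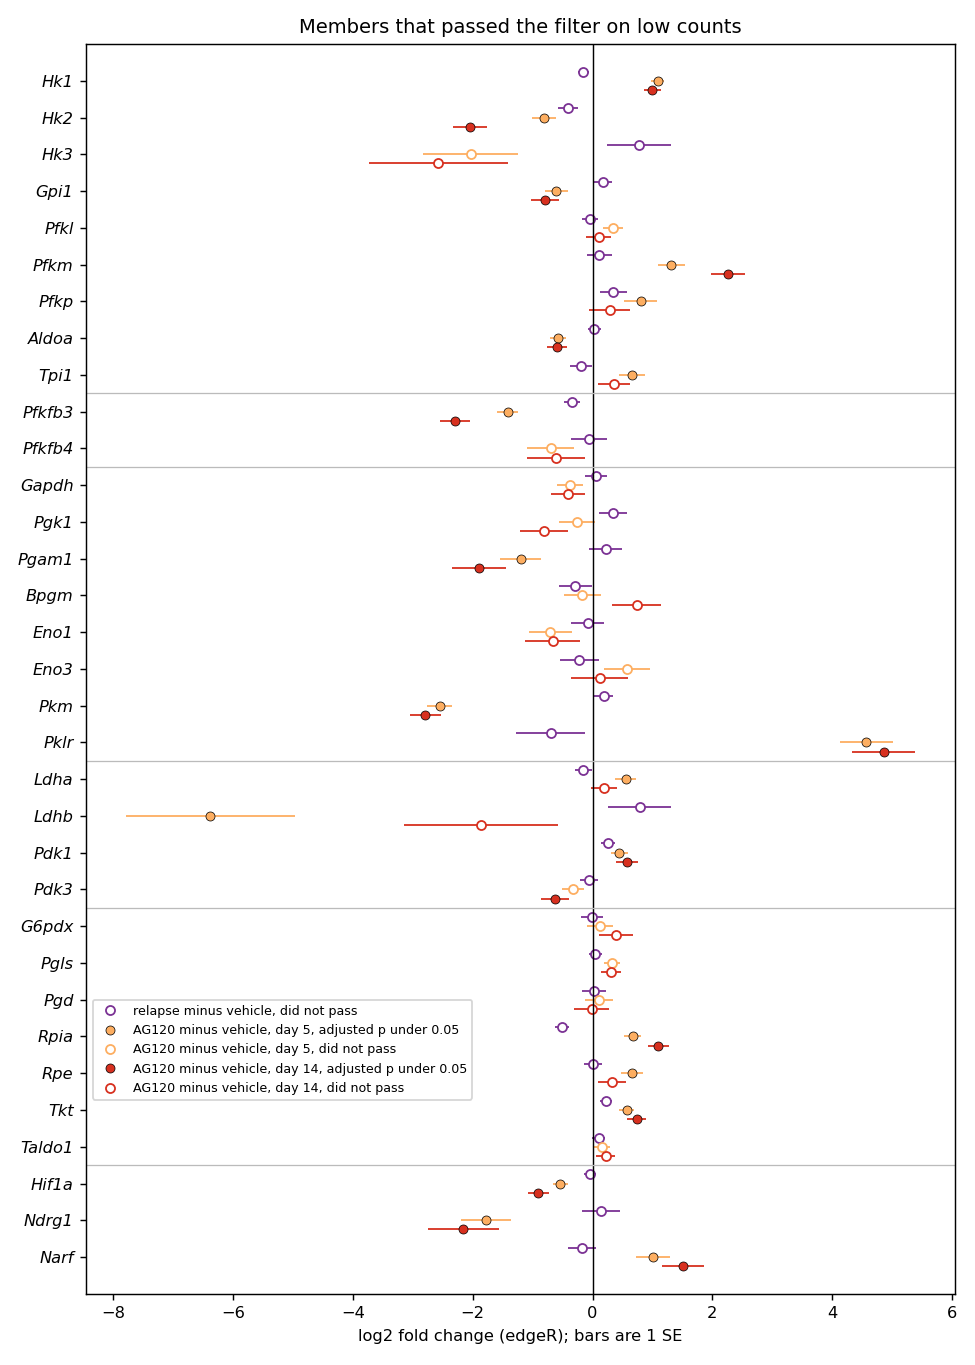
Log2 fold change (x axis, bars of 1 SE) of the 33 members tested, grouped by role, for relapse minus vehicle and for AG120 minus vehicle at days 5 and 14. Filled points passed an adjusted p of 0.05, Pklr and Pkm lie far apart under AG120, and no point of relapse minus vehicle is filled. The Ldhb value at day 5 is a fit against libraries with 0 counts and marks no exact size.

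Pklr rose at both days of AG120. It had 28.7, 32.0 and 30.9 CPM in the 3 AG120 day 5 libraries, against 1.137, 0.772 and 1.86 CPM in vehicle day 5. At day 14 it had 45.9 and 53.7 CPM in AG120 libraries, against 1.75 and 1.66 CPM in vehicle libraries. No AG120 library came near a vehicle library at either day. The log2 fold change was 4.57 ± 0.44 (SE; adjusted p = 3.71e-06) at day 5 and 4.86 ± 0.53 (SE; adjusted p = 1.28e-05) at day 14. In relapse Pklr had 0, 0.711, 2.47 and 0.239 CPM, so the 4 libraries spanned the vehicle range, and the log2 fold change against vehicle was -0.70 (adjusted p = 0.686).

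Pkm (chromosome 9, 59656368 to 59679375) did the reverse. It had 18.5, 12.9 and 13.1 CPM in AG120 day 5, against 78.0, 97.7 and 86.4 CPM in vehicle day 5, and 11.9 and 12.98 CPM in AG120 day 14, against 79.0 and 94.3 CPM in vehicle day 14. The log2 fold change was -2.55 ± 0.20 (SE; adjusted p = 8.98e-08) at day 5 and -2.79 ± 0.26 (SE; adjusted p = 6.52e-07) at day 14. In relapse it had 119, 87.3, 71.0 and 118 CPM, every library far above the AG120 libraries. Pkm makes the M1 and M2 forms by alternative splicing, which these counts do not separate.

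**Figure D2:**
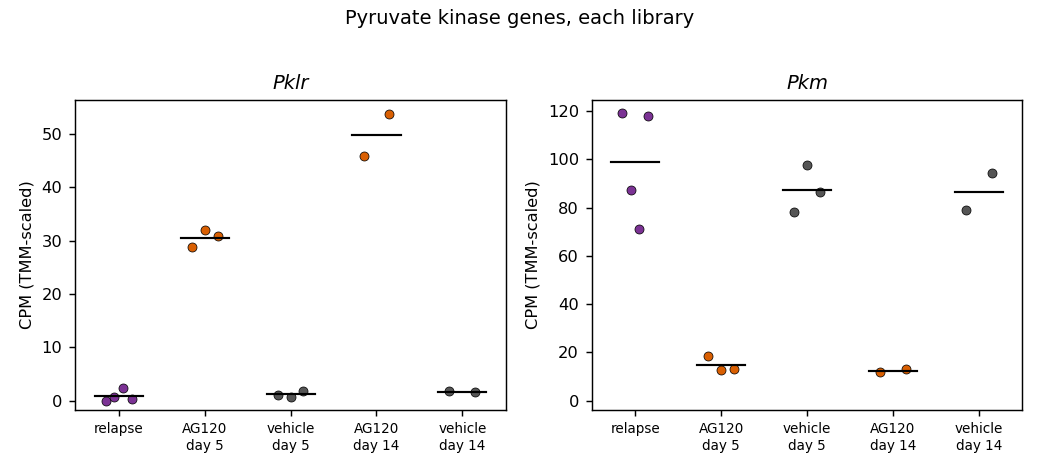
CPM of Pklr and Pkm in each of the 14 libraries (points), with the group mean (line), for relapse, then AG120 and vehicle at each day. The AG120 libraries are high for Pklr, at 28.7 CPM or more, and low for Pkm, at 18.5 CPM or less, while relapse and vehicle libraries show the opposite.

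Of all counts of the 2 pyruvate kinase genes, Pklr held 67.4% ± 5.80 (SD, n = 3) after 5 days of AG120, against 1.44% ± 0.66 (SD, n = 3) with vehicle. At day 14 its share was 80.0% ± 0.82 (SD, n = 2) with AG120, against 1.95% ± 0.32 (SD, n = 2) with vehicle. In relapse it was 1.09% ± 1.55 (SD, n = 4). The relapse libraries ran from 0 of 633 counts, for which the exact Clopper-Pearson 95% interval reaches 0.581%, to 3.36% (interval 2.01% to 5.27%) in replicate 3. That library also had the highest erythroid marker sum of the 4, 258 CPM, against 30.7 to 57.6 CPM in the others. Such intervals cover counting error only. The log2 ratio of Pklr to Pkm counts differed by 7.39 (exact permutation p = 0.0167, adjusted p = 0.03) between AG120 and vehicle, with labels permuted within day. The summed level of both genes was lower in AG120, at 44.0 to 47.3 CPM against 79.2 to 98.5 CPM in vehicle at day 5, and 57.8 to 66.7 CPM against 80.8 to 95.99 CPM at day 14.

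A limit on Pklr comes from its neighbour. Hcn3, a channel gene on the opposite strand, covers the last 711 bases of Pklr, 3′ end included. Hcn3 counts averaged 23.9 CPM in AG120 day 5, against 1.31 CPM in vehicle day 5, and 37.2 CPM in AG120 day 14, against 1.49 CPM in vehicle day 14, with log2 fold changes of 4.17 and 4.63. Whether counting used strand is not given in the sources used here, and without it the reads of the pair cannot be told apart. Besides Hk3 and Pfkp, described below, genes on the opposite strand overlap the 3′ ends of Gapdh, Tpi1, G6pdx, Rpe and Hif1a. Genes on the same strand overlap the 3′ ends of Pgls, Hif1a and Pfkfb2. The part of these overlaps in the counts was not tested.

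The 6 isozyme pairs were compared by their log2 ratio of counts within a library, which does not depend on the scaling between libraries. Over the 18 tests (6 ratios in 3 comparisons), 5 ratios differed between AG120 and vehicle at the smallest p that 120 arrangements allow, 0.0167, and the adjusted p was 0.03 for each. These were Pklr to Pkm, Hk2 to Hk1, Hk3 to Hk1, Pfkm to Pfkl and Ldhb to Ldha. Pfkp to Pfkl differed by 0.32 (exact permutation p = 0.0333, adjusted p = 0.0545) and did not pass. Leaving out any 1 AG120 library raised the adjusted p of all 5 ratios to 0.0514 (0.0545 for Ldhb to Ldha without AG120 day 14 replicate 2), while each difference kept its sign.

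**Figure D3:**
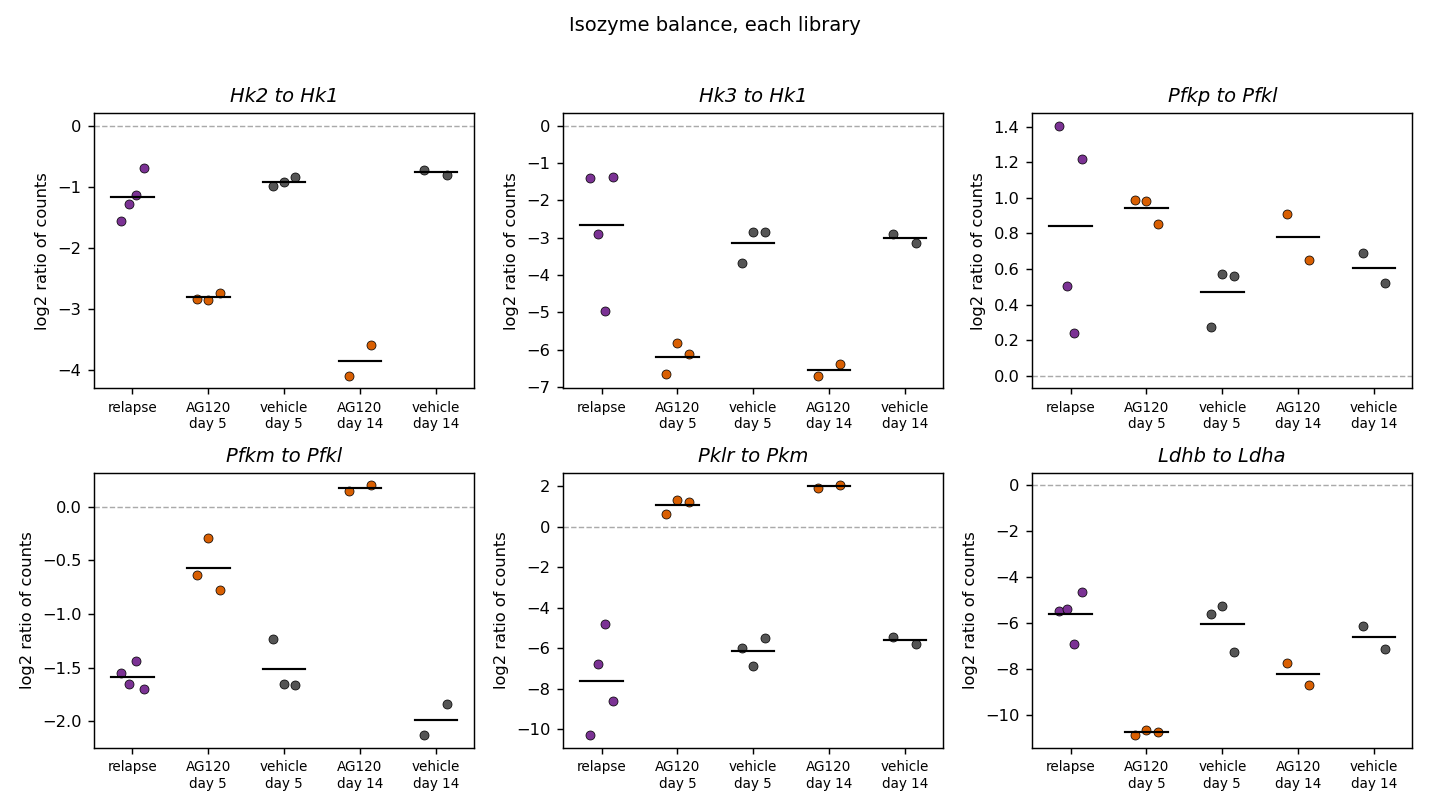
Log2 ratio of counts (0.5 added to each) of 6 isozyme pairs in each library, with group means as lines. The dashed line marks equal counts, which Pklr to Pkm crosses in all 5 AG120 libraries and Pfkm to Pfkl crosses in both AG120 day 14 libraries.

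The hexokinases catalyse the first step of glycolysis. Hk1 (chromosome 10, 62268855 to 62379908), the housekeeping isozyme and the main one of red cells, had 161, 176 and 139 CPM in AG120 day 5, against 77.2, 71.6 and 75.7 CPM in vehicle day 5. At day 14 it had 139 and 141 CPM in AG120, against 68.7 and 71.7 CPM in vehicle. The groups did not overlap at either day, and Hk1 rose, with log2 fold changes of 1.09 ± 0.11 (SE; adjusted p = 1.69e-06) and 1.00 ± 0.14 (SE; adjusted p = 4.59e-05). The 4 relapse libraries had 60.1, 60.3, 70.8 and 68.8 CPM.

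Hk2 (chromosome 6, 82725025 to 82774454), an inducible isozyme linked to proliferating and tumour cells, fell. It had 22.5, 24.5 and 20.9 CPM in AG120 day 5, against 38.9, 37.7 and 42.2 CPM in vehicle day 5, and 8.05 and 11.6 CPM in AG120 day 14, against 41.5 and 41.1 CPM in vehicle day 14. The log2 fold change was -0.81 ± 0.20 (SE; adjusted p = 0.00519) at day 5 and -2.04 ± 0.28 (SE; adjusted p = 3.96e-05) at day 14. The day 14 effect minus the day 5 effect was -1.24 ± 0.35 (SE; adjusted p = 0.126), which did not pass here but passed in 3 of the alternatives (adjusted p 0.000215 to 0.0465). In relapse Hk2 had 20.4, 24.7, 32.4 and 42.7 CPM, a spread from the AG120 day 5 level up to the vehicle level. The Hk2 to Hk1 ratio differed by -2.48 between AG120 and vehicle.

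Hk3 (chromosome 13, 55005985 to 55021385) was low in AG120, with 1.52, 3.02 and 1.91 CPM at day 5, against 5.97, 9.82 and 10.4 CPM in vehicle, and 1.19 and 1.598 CPM at day 14, against 9.20 and 7.999 CPM in vehicle. The groups did not overlap, yet the log2 fold changes of -2.03 (adjusted p = 0.0654) and -2.57 (adjusted p = 0.110) did not pass. DESeq2 passed both (adjusted p = 0.00536 and 0.00917), as did a fit on only the groups compared. The relapse libraries had 22.6, 8.002, 2.20 and 26.7 CPM, a spread wider than that of any other member in relapse. In the same 4 libraries, in the same order, the granulocyte and monocyte marker sum was 2824, 1421, 732 and 1901 CPM. Unc5a, on the opposite strand, overlaps the last 34 bases of Hk3 and fell too, by 2.34 on the log2 scale at day 5. By share of hexokinase counts, Hk1 held 86.5% ± 0.56 (SD, n = 3) after 5 days of AG120, against 60.8% ± 2.20 (SD, n = 3) with vehicle. After 14 days it held 92.6% ± 1.65 (SD, n = 2) with AG120, against 58.4% ± 1.30 (SD, n = 2) with vehicle, and the relapse share was 60.0% ± 7.79 (SD, n = 4).

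Phosphofructokinase commits sugar to glycolysis. Pfkm (chromosome 15, 98092589 to 98132451), the muscle-type subunit that red cells also use, had 7.30, 8.72 and 6.38 CPM in AG120 day 5, against 3.41, 2.98 and 2.63 CPM in vehicle day 5. It had 12.2 and 12.4 CPM in AG120 day 14, against 2.05 and 3.03 CPM in vehicle day 14, and 2.83, 2.49, 3.30 and 3.23 CPM in relapse. It rose, with log2 fold changes of 1.31 ± 0.23 (SE; adjusted p = 0.000244) at day 5 and 2.26 ± 0.29 (SE; adjusted p = 1.40e-05) at day 14. The difference between the days, 0.95 (adjusted p = 0.279), did not pass.

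Pfkl (chromosome 10, 77986947 to 78010083), the liver-type subunit, did not pass at either day. It had 11.4, 10.7 and 10.997 CPM in AG120 day 5, against 8.10, 9.49 and 8.44 CPM in vehicle day 5, and 11.03 and 10.8 CPM in AG120 day 14, against 9.20 and 11.03 CPM in vehicle day 14, with 8.49, 8.002, 9.06 and 10.6 CPM in relapse. Neither 0.35 (adjusted p = 0.103) at day 5 nor 0.11 (adjusted p = 0.728) at day 14 passed. The ratio of Pfkm to Pfkl differed by 1.55 between AG120 and vehicle, and Pfkm held 29.3% ± 2.22 (SD, n = 2) of the family's counts in AG120 day 14, against 8.98% ± 1.64 (SD, n = 2) in vehicle day 14.

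Pfkp (chromosome 13, 6579768 to 6648777), the platelet-type subunit, had 22.6, 21.3 and 19.9 CPM in AG120 day 5, against 9.80, 14.1 and 12.5 CPM in vehicle day 5, and rose by 0.80 ± 0.27 (SE; adjusted p = 0.0289) on the log2 scale. At day 14 it had 20.9 and 17.0 CPM in AG120, against 14.9 and 15.9 CPM in vehicle, and did not pass, at 0.29 (adjusted p = 0.551). The relapse libraries had 22.6, 11.4, 10.7 and 24.9 CPM, with replicates 1 and 4 about as high as AG120 libraries and replicates 2 and 3 as low as vehicle libraries. The call at day 5 was lost in 5 of the fits that left out 1 library (adjusted p 0.0526 to 0.103). Pitrm1, on the opposite strand, covers the last 748 bases of Pfkp and rose by 1.76 on the log2 scale at day 5 and 1.93 at day 14, so these counts are uncertain.

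The other upper steps moved less. Gpi1 encodes the isomerase after hexokinase, at 48.8 to 63.7 CPM in AG120 day 5 against 82.7 to 93.8 CPM in vehicle day 5, and it fell, with log2 fold changes of -0.60 (adjusted p = 0.0177) and -0.80 (adjusted p = 0.0159). Aldoa, the aldolase of most tissues and of red cells, also fell, at -0.57 (adjusted p = 0.00277) and -0.60 (adjusted p = 0.0106). Tpi1, triose phosphate isomerase, rose at day 5, at 0.65 (adjusted p = 0.0251), while 0.36 (adjusted p = 0.320) at day 14 did not pass. The Gpi1 call at day 14 was lost without any 1 of the 4 libraries (adjusted p 0.0605 to 0.0844), and at day 5 without AG120 replicate 3 (adjusted p = 0.0888) or vehicle replicate 3 (adjusted p = 0.0570). The Aldoa call at day 14 was lost without AG120 replicate 1 or 2 or vehicle replicate 2 (adjusted p 0.0537 to 0.0595). The Tpi1 call at day 5 was lost without any 1 library except AG120 replicate 2 (adjusted p 0.0511 to 0.0841). Aldoc, the brain aldolase, stayed under 0.9 CPM in every library.

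The PFKFB enzymes make and break down the strongest activator of phosphofructokinase. Pfkfb3 (chromosome 2, 11471433 to 11554077), the form with the strongest kinase activity, fell. It had 8.66, 7.21 and 8.93 CPM in AG120 day 5, against 21.2, 22.1 and 23.2 CPM in vehicle day 5, and 3.278 and 4.39 CPM in AG120 day 14, against 17.7 and 20.8 CPM in vehicle day 14. The groups were well apart, with log2 fold changes of -1.42 ± 0.17 (SE; adjusted p = 8.09e-06) and -2.29 ± 0.25 (SE; adjusted p = 3.19e-06). Relapse libraries had 15.7, 13.7, 14.7 and 20.6 CPM, above every AG120 library, with 3 of the 4 below the vehicle libraries, and relapse minus vehicle was -0.35 (adjusted p = 0.332). Pfkfb4 ranged from 0.894 to 2.92 CPM over all libraries and did not pass at either day, and Pfkfb1 and Pfkfb2 never exceeded 1.6 CPM.

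In the lower steps of glycolysis, Pgam1 (chromosome 19, 41911923 to 41918660), a phosphoglycerate mutase, fell. It had 49.6, 39.2 and 41.3 CPM in AG120 day 5, against 80.4, 102 and 116 CPM in vehicle day 5. At day 14 it had 27.1 and 32.0 CPM in AG120, against 106 and 115 CPM in vehicle. The log2 fold changes were -1.20 ± 0.35 (SE; adjusted p = 0.0174) and -1.90 ± 0.45 (SE; adjusted p = 0.00685), and no library of 1 group reached the other. The day 5 call was lost without AG120 replicate 2 or 3 or vehicle replicate 3 (adjusted p 0.0539 to 0.0572) and with no filter on low counts (adjusted p = 0.0701), and the day 14 call without AG120 replicate 1 (adjusted p = 0.0567). The relapse libraries had 196, 72.0, 70.2 and 150.0 CPM, replicates 1 and 4 above all vehicle libraries and replicates 2 and 3 below them.

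The other 5 genes tested in this stretch did not pass at either day. Bpgm, the mutase that makes the oxygen-release signal of red cells, had 3.19, 5.20 and 5.58 CPM in AG120 day 5, against 5.12, 5.07 and 5.48 CPM in vehicle day 5, and 5.96 and 7.19 CPM in AG120 day 14, against 3.80 and 4.14 CPM in vehicle day 14. Its log2 fold changes were -0.17 (adjusted p = 0.702) and 0.74 (adjusted p = 0.172). The groups overlapped at day 5 and not at day 14. Gapdh, Pgk1 and Eno1, which encode core enzymes, had 1.598 to 14.7 CPM over all libraries. Gapdh had 8.51 to 9.08 CPM in AG120 day 5, against 10.8 to 12.8 CPM in vehicle day 5. Eno1 had 2.28 to 2.55 CPM in AG120 day 5, against 2.98 to 4.93 CPM in vehicle day 5. At day 5 both passed only in the fit on only the groups compared (adjusted p = 0.0326 for Gapdh and 0.0266 for Eno1). Gapdh, Pgk1, Aldoa, Pgam1 and Ldha have named pseudogenes, which held 0 to 2 counts each. How reads that match several copies were counted could not be found, so the counts of these genes are uncertain, and the part of such reads in their levels was not tested. Eno3, the muscle enolase, had 1.32 to 4.59 CPM, and Eno2, the neuronal one, had 1 count in all.

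Lactate dehydrogenase exchanges pyruvate and lactate. Ldhb (chromosome 6, 142490249 to 142507957), the heart-type subunit, was not detected in any AG120 day 5 library, and had 1.56, 2.43 and 0.658 CPM in vehicle day 5. With 3 counts over the group as the floor, it was at least 9.70-fold lower (adjusted p = 0.00244). At day 14 it had 0.298 and 0.1998 CPM in AG120, which is 2 counts in all, against 1.17 and 0.690 CPM, or 13 counts, in vehicle, a ratio of 0.259 with a counting interval of 0.0284 to 1.15, and it did not pass (adjusted p = 0.281). The relapse libraries had 2.26, 1.42, 0.549 and 3.95 CPM.

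Ldha (chromosome 7, 46841475 to 46855627), the main subunit here, had 143, 133 and 138 CPM in AG120 day 5, against 79.2, 94.4 and 108 CPM in vehicle day 5, and rose by 0.55 ± 0.17 (SE; adjusted p = 0.0172) on the log2 scale. At day 14 it had 96.3 and 122 CPM in AG120, against 87.4 and 104 CPM in vehicle, the groups overlapped, and 0.19 (adjusted p = 0.515) did not pass. The day 5 call was lost without AG120 replicate 1 (adjusted p = 0.0552) or vehicle replicate 1 (adjusted p = 0.0869). In relapse it had 104, 63.7, 74.4 and 99.6 CPM. Ldha held 97.8% to 100% of the family's counts on average in each group, so the Ldhb to Ldha difference of -3.16 between AG120 and vehicle concerns a minor isozyme.

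The pyruvate dehydrogenase kinases switch off the entry of pyruvate into mitochondria. Pdk1 rose, at 0.45 (adjusted p = 0.0211) and 0.57 (adjusted p = 0.0242), with 16.1 to 18.8 CPM in AG120 day 5, against 11.9 to 12.9 CPM in vehicle day 5. Pdk3 fell at day 14, at -0.63 (adjusted p = 0.0456), and -0.32 (adjusted p = 0.168) at day 5 did not pass. Both calls were lost in several alternatives (5 for Pdk1 and 6 for Pdk3 at day 14). Pdk2 had no count in vehicle day 5 and 0.608, 1.34 and 0.478 CPM in AG120 day 5, too low for the filter. Its day 14 level was 0 and 0.599 CPM in AG120, or 3 counts, against 0.438 and 0.276 CPM, or 5 counts, in vehicle, a ratio of 1.01 with a counting interval of 0.157 to 5.20.

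Of the 7 pentose phosphate genes tested, 3 rose at day 5 and 2 at day 14, and none fell. That is 42.9% and 28.6% called, against 39.5% and 34.7% of all genes. Over all genes, 20.1% rose at day 5 and 16.8% at day 14. The 3 oxidative genes did not pass at either day: G6pdx, the entry enzyme, had log2 fold changes of 0.12 (adjusted p = 0.694) and 0.39 (adjusted p = 0.3000), Pgls 0.33 (adjusted p = 0.0539) and 0.31 (adjusted p = 0.154), and Pgd 0.10 (adjusted p = 0.756) and -0.01 (adjusted p = 0.977). Pgls at day 5 passed with limma-voom (adjusted p = 0.0486) and with only the groups compared (adjusted p = 0.00136). Of the 4 non-oxidative genes, which interconvert sugar phosphates, 3 rose at day 5 and 2 at day 14. Rpia (chromosome 6, 70765720 to 70792232), which makes ribose phosphate, had 69.9, 85.7 and 73.8 CPM in AG120 day 5, against 45.5, 47.4 and 51.3 CPM in vehicle day 5, and 72.1 and 91.9 CPM in AG120 day 14, against 37.3 and 39.4 CPM in vehicle day 14. It rose, with log2 fold changes of 0.67 ± 0.14 (SE; adjusted p = 0.00122) and 1.10 ± 0.18 (SE; adjusted p = 0.000135), and the groups did not overlap.

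Tkt, transketolase, rose at both days, at 0.57 (adjusted p = 0.00228) and 0.74 (adjusted p = 0.00177), with 347 to 399 CPM in AG120 day 5, against 216 to 269 CPM in vehicle day 5. Rpe, the epimerase, rose at day 5, at 0.66 (adjusted p = 0.00833), but not without AG120 replicate 3 (adjusted p = 0.0540), and at day 14 had 0.33 (adjusted p = 0.286). Taldo1, transaldolase, had 0.16 (adjusted p = 0.357) and 0.22 (adjusted p = 0.316) and did not pass. Whether the branches differ in response was not tested.

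**Figure D4:**
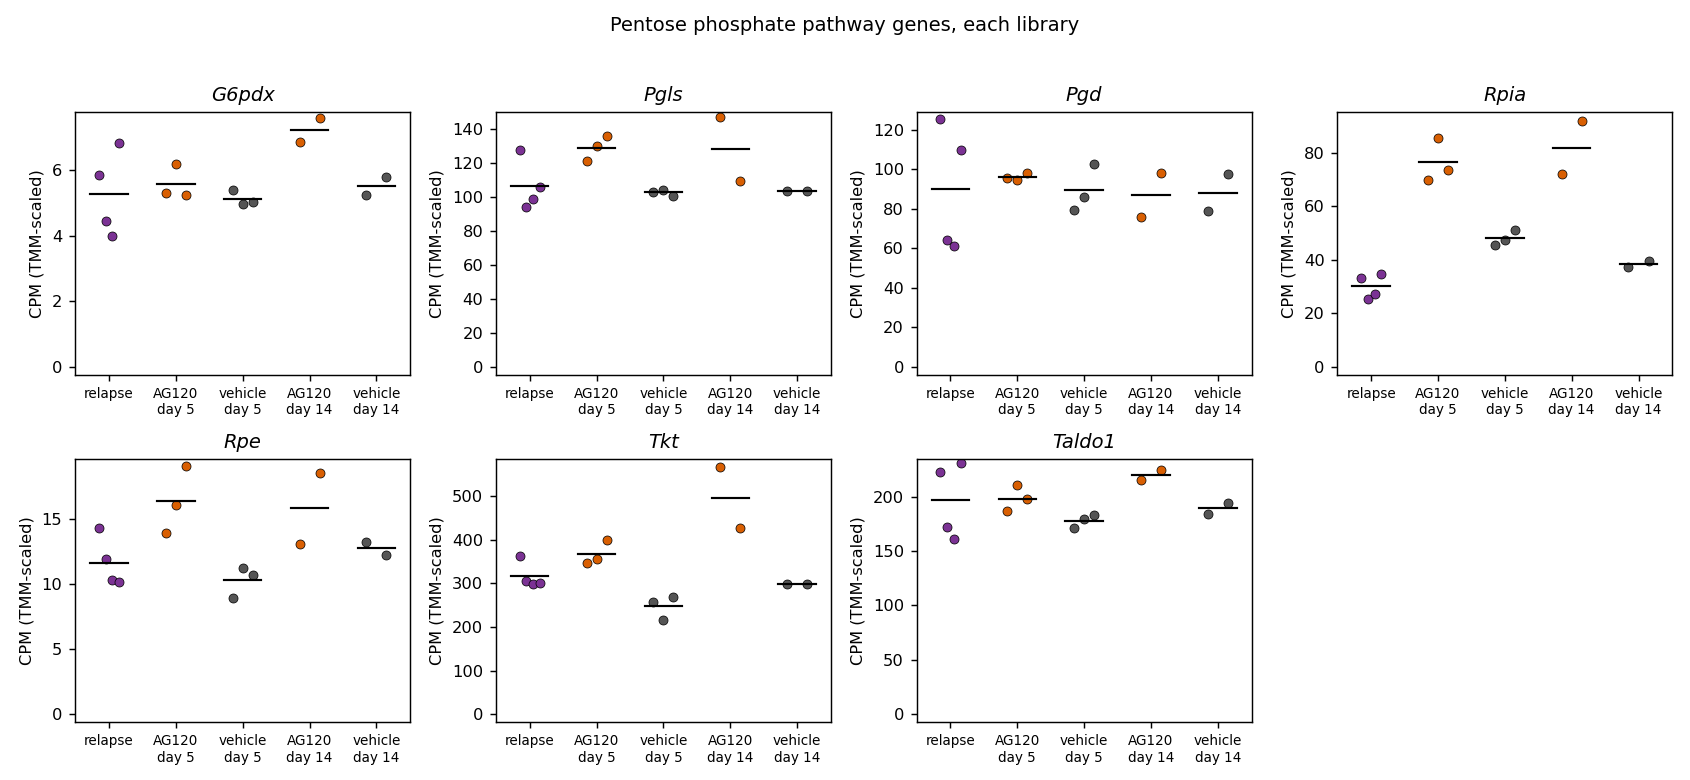
CPM of the 7 pentose phosphate genes in each library, with group means as lines. Rpia and Tkt stand higher in AG120 than in the vehicle of the same day, Rpia is lower in all 4 relapse libraries than in any vehicle library, and Pgd overlaps between AG120 and vehicle at both days.

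Hif1a, Ndrg1 and Narf all passed at both days. Hif1a had 14.6, 15.8 and 17.5 CPM in AG120 day 5, against 24.2, 22.3 and 23.0 CPM in vehicle day 5, and fell, at -0.54 (adjusted p = 0.00398) and -0.91 (adjusted p = 0.000696). HIF1 is controlled mainly through the stability of its protein, which was not measured. Ndrg1 (chromosome 15, 66929318 to 66969640), known as a gene induced by low oxygen and differentiation, had 6.08, 10.9 and 5.74 CPM in AG120 day 5, against 27.3, 26.3 and 24.3 CPM in vehicle day 5, and 5.96 and 4.19 CPM in AG120 day 14, against 22.2 and 22.2 CPM in vehicle day 14. It fell, with log2 fold changes of -1.78 ± 0.42 (SE; adjusted p = 0.00561) and -2.16 ± 0.59 (SE; adjusted p = 0.0143), and relapse libraries had 15.7, 43.2, 34.3 and 13.2 CPM. The day 14 call was lost without AG120 replicate 1 (adjusted p = 0.0523) or 2 (adjusted p = 0.121).

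Narf (chromosome 11, 121237253 to 121255856), which encodes a protein that binds prelamin A, had 72.8, 74.3 and 55.5 CPM in AG120 day 5, against 37.4, 35.6 and 28.0 CPM in vehicle day 5. It had 95.1 and 86.1 CPM in AG120 day 14, against 35.1 and 28.5 CPM in vehicle day 14. It rose, with log2 fold changes of 1.01 ± 0.28 (SE; adjusted p = 0.0119) and 1.51 ± 0.35 (SE; adjusted p = 0.00458). The day 5 call was lost without vehicle replicate 3 (adjusted p = 0.0505). In relapse it had 16.6, 35.2, 43.7 and 20.3 CPM.

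Between the days of AG120 no member passed the test of the difference: 0 of 33 were called by edgeR, DESeq2 or limma-voom, against 0.934% of all genes by edgeR (0.208% higher and 0.725% lower at day 14). At an unadjusted p under 0.05, 3 did (Pfkfb3, Hk2 and Pfkm), each with a larger change at day 14. The share of all genes at that threshold is not given for this difference. Vehicle day 14 minus vehicle day 5 gave 0 of 33 by the same 3 tools, against 0.0% of all genes passing. At an unadjusted p under 0.05 it gave 0 of 33, against 574 of the 11994 genes tested.

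Relapse minus vehicle gave no call among these genes. No member passed, against 0.183% of all genes (0.1% higher and 0.0834% lower). DESeq2 called 1 member (Rpia, adjusted p = 0.0310), and 65 higher and 33 lower of 14273 genes. With limma-voom 0 members passed, against 17 higher and 13 lower of 11994 genes. At an unadjusted p under 0.05 there were 4 members (Pfkfb3, Rpia, Hk2 and Tkt). The share of all genes at that threshold is not given here. All relapse libraries lay narrowly above the vehicle libraries for Pdk1 (13.8 CPM or more, against 13.2 CPM or less). The same held for Tkt (299.3 CPM or more, against 297.9 CPM or less). For Rpia all relapse libraries lay below the vehicle libraries. The share of all genes with such a gap is not given here, so these gaps cannot be read as particular to the members. Rpia had 33.4, 25.3, 27.3 and 34.6 CPM in relapse, against 37.3 to 51.3 CPM over the 5 vehicle libraries, and its log2 fold change was -0.51 ± 0.12 (SE; adjusted p = 0.0923). None of the 6 isozyme ratios passed between relapse and vehicle, Pklr to Pkm differing by -1.71 (exact permutation p = 0.175, adjusted p = 0.242). That no member passed does not show that levels were equal, and the relapse libraries spread widely.

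Against AG120, 22 of the 33 passed in relapse, against 54.0% of all genes, 12 of them higher (background 27.9%) and 10 lower (background 26.1%). The comparison uses the same AG120 libraries as those above, so its values are not separate support for them. Pkm was 2.86 ± 0.17 higher in relapse and Pfkfb3 1.51 ± 0.16 higher on the log2 scale (adjusted p = 9.98e-10 and 8.27e-07). Pklr was lower, at -5.41 ± 0.41 (SE; adjusted p = 1.51e-07), as were Rpia, at -1.39 (adjusted p = 7.43e-08), and Hk1, at -1.20 (adjusted p = 3.18e-08). Ldhb had 57 counts over the relapse libraries and 2 over the 5 AG120 libraries, a ratio of 29.2 with a counting interval of 7.71 to 247. Of the 6 isozyme ratios, 5 differed, Pfkp to Pfkl being the exception at -0.03 (exact permutation p = 0.905, adjusted p = 0.905), and Hk2 to Hk1 differed by 2.05 (exact permutation p = 0.00794, adjusted p = 0.03), the smallest p that 126 arrangements allow.

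The 4 relapse libraries did not form a tight group. Over the members, the median SD of log2 CPM was 0.30 in relapse, against 0.14 in AG120 day 5. The split was not particular to the members: over all genes tested, the Pearson correlation of log2 CPM was 0.972 between replicates 1 and 4. It was 0.957 between replicates 2 and 3, and 0.920 to 0.935 for the other pairs. Replicates 1 and 4 were higher than replicates 2 and 3 for Hk3 and Pgam1, and likewise for Gpi1, Pkm, Tpi1, Ldha, Pgd and Taldo1. They were lower for Ndrg1 and Narf. Marker sums of megakaryocytes were 158 and 168 CPM in replicates 1 and 4 and 541 and 488 CPM in replicates 2 and 3. Those of mast cells and basophils were 51.1 and 60.7 CPM in replicates 1 and 4 and 139.8 and 103 CPM in replicates 2 and 3. Both sums were thus lower in replicates 1 and 4, as were Ndrg1 and Narf. The part of these markers was not tested.

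**Figure D5:**
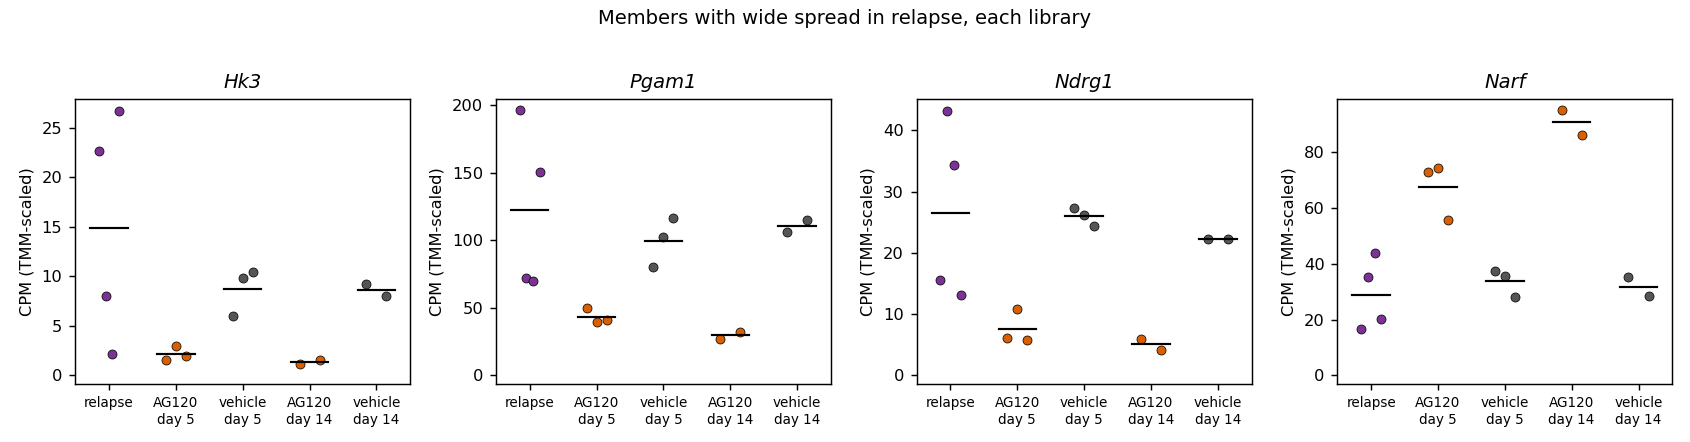
CPM of Hk3, Pgam1, Ndrg1 and Narf in each library, points within a group in replicate order and group means as lines. In relapse, the first and the last points are high for Hk3 and Pgam1 and low for Ndrg1 and Narf.

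Genes next to the pathway, on lists also chosen with earlier results known, moved in parts. Of 7 tested glucose and lactate transport genes, 2 rose and 1 fell at day 5, and 2 rose and 3 fell at day 14, which is 42.9% and 71.4% called, against 39.5% and 34.7% of all genes. Slc16a1, the lactate carrier MCT1, rose at both days, at 1.75 ± 0.23 (SE; adjusted p = 2.43e-05) and 1.90 ± 0.28 (SE; adjusted p = 8.19e-05), with 65.8 to 76.0 CPM in AG120 day 5, against 18.8 to 24.5 CPM in vehicle day 5. Its chaperone Bsg rose too, at 0.66 and 1.00. Slc2a1, the glucose carrier GLUT1, fell, at -1.49 ± 0.39 (SE; adjusted p = 0.00660) and -1.88 ± 0.61 (SE; adjusted p = 0.0234). The day 14 call was lost without AG120 replicate 1 or either vehicle library (adjusted p 0.0540 to 0.136). It had 1.43 to 2.01 CPM in AG120 day 5, against 4.69 to 5.51 CPM in vehicle day 5.

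Of 11 genes of pyruvate entry into mitochondria, 5 rose and 1 fell at day 5, and 3 rose and none fell at day 14, which is 54.5% and 27.3% called, against 39.5% and 34.7% of all genes. Dlat, a subunit of pyruvate dehydrogenase, rose at both, at 0.98 and 0.81, the day 14 call being lost with DESeq2 and without AG120 or vehicle replicate 2 (adjusted p 0.0540 to 0.335). Of 14 side-branch genes tested, 5 rose and 2 fell at day 5, and 1 rose and 4 fell at day 14, or 50% and 35.7%, near the share of all genes. The genes named for phosphoglucomutase moved apart: Pgm2 rose, at 1.5007 ± 0.23 (SE; adjusted p = 0.000114) and 1.52 ± 0.30 (SE; adjusted p = 0.000911), and Pgm1 fell, at -1.19 ± 0.23 (SE; adjusted p = 0.000540) and -2.67 ± 0.37 (SE; adjusted p = 3.52e-05). Tigar, which lowers the activator made by PFKFB enzymes, fell at day 14, at -2.62, a call lost without AG120 replicate 2 (adjusted p = 0.117).

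Of 7 HIF regulators tested, 1 rose and 3 fell at day 5, and 1 rose and 1 fell at day 14, which is 57.1% and 28.6% called, against 39.5% and 34.7% of all genes. Egln3, an oxygen-sensing hydroxylase that is itself a HIF target, fell, at -1.70 ± 0.44 (SE; adjusted p = 0.00971) and -3.76 ± 0.68 (SE; adjusted p = 0.00114), and Hif3a rose, at 2.25 ± 0.37 (SE; adjusted p = 0.000166) and 1.93 ± 0.52 (SE; adjusted p = 0.00822), the day 14 call being lost without AG120 replicate 2 (adjusted p = 0.101) or vehicle replicate 2 (adjusted p = 0.0645). Of 11 HIF targets outside glycolysis, 2 rose and none fell at day 5, and 1 rose and 2 fell at day 14, or 18.2% and 27.3%, below the share of all genes. Higd1a rose at both, at 0.79 and 0.84, and Car9 fell at day 14, where AG120 libraries held 1 count in all. Of 3 other isozymes tested, none rose, 1 fell at day 5 and 2 fell at day 14, Ldhd at both, which is 33.3% and 66.7% called. Of 3 gluconeogenesis genes tested, Fbp1 fell at day 5 and Pck2 rose at day 14, which is 33.3% called at each day. In relapse against vehicle, none of these lists held a gene that passed.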

How the data were processed

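Gene-level raw counts of 14 libraries were deposited in a single table, per the labels made with a QuantSeq 3′ kit from sorted cells. The submitters' processing notes name bcl2fastq 2.17.1.14, cutadapt 1.14, HISAT2 2.1.0, featureCounts of Subread 1.6.3, R 3.6.2, limma 3.42.2, edgeR 3.28.1 and build mm10. The strand setting, treatment of multi-mapping reads and use of molecular identifiers could not be found in these sources. Counts were used as deposited, including 5 ribosomal RNA models. Symbols and positions came from GENCODE vM21 (GRCm38, the assembly of mm10), which named 52403 of 52636 identifiers.

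Tests used R 4.3.3, edgeR 4.0.16 (filterByExpr by group, minimum count 10; TMM; robust quasi-likelihood, 1 coefficient per group over all libraries, 9 residual degrees of freedom), with DESeq2 1.42.0 and limma 3.58.1 as alternatives. Isozyme ratios (0.5 added to each count) had two-sided exact permutation tests. A floor of 3 counts stands for 0. The tests were tried on simulated data.

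The members and lists were chosen with earlier results of these data known. Values in every library are given for members that passed with a log2 fold change of at least 1 in size in AG120 or relapse against vehicle, and for the isozyme families. Bpgm, Hif1a and Pdk2 values were added after they were seen. No 2 libraries of the same group agreed within sampling noise, and pairs across groups were not checked.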

Additional observations from a re-analysis of the deposited data

Results flagged for a closer look

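In relapse, 1 library stood apart from the others for a pair of members. Pdk1 was at 17.2 CPM in replicate 3, against 13.8 to 13.9 CPM in replicates 1, 2 and 4. Without replicate 3, relapse minus AG120 passed for Pdk1 (adjusted p = 0.0370). Tkt was at 364 CPM in replicate 1, against 299 to 306 CPM in replicates 2, 3 and 4. The gap of the extreme library to its neighbour, divided by the range of the group, was 0.967 for Pdk1 and 0.896 for Tkt, above Dixon's 95% critical value for 4 samples. Chance gives such a gap in about 1 in 20 groups, and 33 members were looked at.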

How the results depend on the processing

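Of the members called, 12 of 20 at day 5, 10 of 16 at day 14 and 18 of 22 in relapse minus AG120 passed under every alternative run (RLE scaling, DESeq2, limma-voom, no filter on low counts, no ribosomal RNA models, only the groups compared, replicate block, and each library left out). Pklr, Pkm, Hk1, Hk2, Pfkm, Pfkfb3, Rpia, Tkt and Hif1a were among these in all 3 comparisons. With 1 library left out, the count called was 15 to 19 at day 5, and in relapse minus AG120 it stayed near the 22 of the main fit. At day 14 it was below the 16 of the main fit whichever library was left out. The count over all genes was lower there too, and 1 of the groups then held only 1 library. Day 14 calls lost in those fits cannot be told apart from the effect of the smaller group. Members called in the day 14 minus day 5 effect were 1 with no filter (Hk2), 1 with the replicate block (Hk2) and 2 with only the groups compared (Hk2 and Pgam1). Over all genes these fits called 81 higher and 293 lower of 29966, 28 and 80 of 11994, and 356 and 513 of 11691. In relapse minus vehicle, DESeq2 and the fit with no filter each called 1 (Rpia). Over all genes DESeq2 called 65 higher and 33 lower of 14273, and the fit with no filter 158 and 109 of 29966.

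Replicate numbers did not pair the samples: the correlations of deviations were 0.107, 0.0491 and 0.0171 for the day 5 pairs and 0.0685 at day 14, and the replicate block gave 21 calls at day 5, 15 at day 14, 0 in relapse minus vehicle and 20 in relapse minus AG120. Isozyme calls sit at the smallest p the design allows, except Ldhb to Ldha in relapse minus AG120 (exact permutation p = 0.0159). Leaving out 1 AG120 library leaves fewer arrangements, and the isozyme calls were then lost, at an adjusted p of 0.0514 or more. AG120 minus vehicle then ranged, over all libraries left out, from -2.60 to -2.36 for Hk2 to Hk1, -3.43 to -3.18 for Hk3 to Hk1, 1.48 to 1.62 for Pfkm to Pfkl, 7.20 to 7.55 for Pklr to Pkm and -3.46 to -2.92 for Ldhb to Ldha. Relapse minus AG120 ranged from 1.84 to 2.18, 3.25 to 4.45, -1.44 to -1.19, -9.996 to -8.16 and 3.81 to 4.63 for the same ratios in that order. The Ldhb to Ldha call was also lost when vehicle day 14 replicate 1 was left out (adjusted p = 0.0545) and, for relapse minus AG120, without relapse replicate 2 (0.0584) or 4 (0.0536), and the difference of edgeR fold changes gave -4.50 and 5.44 for it, since Ldhb had 0 counts in AG120 day 5. Hk2 to Hk1 in relapse minus vehicle ranged from -0.47 to -0.18 and passed without relapse replicate 4 (adjusted p = 0.0321). Ldhb and the 5 untested members had too few counts for a firm value.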
